A study of Homo sapiens with 8 samples.

Results

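The genes that encode voltage-gated sodium and calcium channels and the receptors for GABA, glutamate, acetylcholine, glycine and serotonin were examined in HepG2 cells exposed to inhibitors of EZH1 and EZH2. Genes were taken by symbol only, and these families were chosen with earlier results of these data known. For calcium channels the symbols were CACNA, CACNB and CACNG, and for sodium channels SCN followed by a number and A or B. For receptors they were GABR, GRIA, GRIK, GRIN, GRM, CHRN, GLRA or GLRB, and HTR, leaving out symbols with a hyphen. This gave 79 of the 25603 genes of the table, and 78 of them are annotated as protein-coding. HepG2 is an established human hepatocarcinoma cell line. Cells received UNC1999 and Valmetostat Tosylate (as the labels spell valemetostat) together, each at 1 µM (EZHi, called DI in the sample titles), or the DMSO vehicle at 0.2% per the labels, for 4 days, with 4 libraries per group. Both groups were grown in William E medium with fetal bovine serum, insulin and dexamethasone, and no untreated group was analysed here. The 10 hepatocyte and HepG2 markers were all detected, ALB at 10106 and AFP at 16199 estimated FPKM, and had a summed level of 28672 to 53056 in vehicle and 31061 to 47788 in EZHi. FGB, a fibrinogen chain, was the 1 marker called higher (0.92, limma adjusted p 0.00167), 0 were lower, and 3 were higher and 1 lower in a fit with the replicate number as a block. Over all genes tested the shares were 8.85% higher and 4.27% lower, and 14.9% and 15.1% with the block.

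Voltage-gated channels open when the membrane depolarizes and let sodium or calcium enter the cell. They are built from a large pore-forming subunit and from smaller auxiliary subunits that set trafficking and gating. Ligand-gated receptors such as the GABA-A, NMDA, nicotinic, glycine and serotonin type 3 receptors are assemblies of several subunits around an ion pore, whereas the metabotropic glutamate receptors and most serotonin receptors signal through G proteins. These genes are best known from neurons, muscle and endocrine cells. In other tissues many of them carry H3K27me3, the histone mark laid down by EZH1 and EZH2 within the polycomb repressive complex 2, and their promoters are often rich in CpG dinucleotides.

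The sequences before the start sites of 5 of these genes are shown because they illustrate how unlike the promoters of the genes described below can be. Each is the 250 bases before the start site, read 5′ to 3′ on the plus strand from RefSeq (GRCh38.p14), in lower case with every CG dinucleotide in capitals. The first 4 belong to genes that rose with EZHi and the last to a gene that fell. The windows are HTR3B chr11:113904546-113904795, GRIN3B chr19:1000169-1000418, CACNA1D chr3:53494361-53494610, SCN8A chr12:51590983-51591232 and CHRNB1 chr17:7444811-7445060.
HTR3B: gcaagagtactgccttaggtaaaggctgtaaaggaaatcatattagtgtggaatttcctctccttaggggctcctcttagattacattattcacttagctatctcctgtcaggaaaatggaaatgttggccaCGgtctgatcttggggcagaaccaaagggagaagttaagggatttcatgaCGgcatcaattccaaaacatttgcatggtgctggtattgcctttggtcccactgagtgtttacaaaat
GRIN3B: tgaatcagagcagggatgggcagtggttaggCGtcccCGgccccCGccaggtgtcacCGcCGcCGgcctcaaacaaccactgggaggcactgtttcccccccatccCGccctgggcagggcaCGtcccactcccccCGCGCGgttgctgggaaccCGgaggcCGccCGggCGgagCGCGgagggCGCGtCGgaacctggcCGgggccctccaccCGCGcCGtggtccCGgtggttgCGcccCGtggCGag
CACNA1D: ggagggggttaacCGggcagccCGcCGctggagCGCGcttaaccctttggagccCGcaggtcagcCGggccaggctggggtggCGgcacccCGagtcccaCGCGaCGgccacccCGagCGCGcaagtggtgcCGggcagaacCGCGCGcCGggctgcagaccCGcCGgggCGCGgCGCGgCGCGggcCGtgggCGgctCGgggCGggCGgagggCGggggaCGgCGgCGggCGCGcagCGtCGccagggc
SCN8A: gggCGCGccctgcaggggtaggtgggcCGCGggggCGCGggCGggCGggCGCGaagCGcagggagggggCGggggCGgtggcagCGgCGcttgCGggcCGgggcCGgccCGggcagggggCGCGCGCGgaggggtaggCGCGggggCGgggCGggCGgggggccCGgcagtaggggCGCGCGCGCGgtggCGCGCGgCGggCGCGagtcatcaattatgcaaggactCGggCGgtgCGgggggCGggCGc
CHRNB1: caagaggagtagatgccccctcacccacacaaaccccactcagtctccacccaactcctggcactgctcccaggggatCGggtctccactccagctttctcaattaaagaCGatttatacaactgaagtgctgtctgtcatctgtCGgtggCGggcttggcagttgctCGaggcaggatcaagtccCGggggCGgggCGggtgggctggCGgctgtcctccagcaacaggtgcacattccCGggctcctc
The window of HTR3B held 2 CG dinucleotides and that of CHRNB1 held 10, against 28 for GRIN3B, 41 for CACNA1D and 45 for SCN8A. Over 27305 RefSeq windows of this length the median was 11, and it was 20 over the 12004 windows of genes tested here. At least as many CG dinucleotides as in SCN8A were found in 0.619% of all windows, as many as in CACNA1D in 1.68%, as many as in GRIN3B in 15.5%, as many as in CHRNB1 in 51.9% and as many as in HTR3B in 84.6%. Among the windows of genes tested here these shares were 0.941%, 2.75%, 25.8%, 80.5% and 96.9%, in the same order. The start sites used for CACNA1D and SCN8A lie inside the genes as GENCODE draws them, since both have further transcripts that begin upstream. A window was at hand for 55 of the 79 genes (69.6%) and for 6 of the 12 that rose, under the 80% needed, so a comparison of CpG content between groups of genes is void and none is given.

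Expression values are the deposited log2 values, corrected for transcript length, so that levels can be compared between genes. They are also given as estimated FPKM, the same value on a linear scale, relative to library size and transcript length. Most receptor and channel genes were low in these cells. Their median level was 0.0903 estimated FPKM over the 8 libraries, against 1.10 for all genes of the table, and 16 of 79 reached 1 and 4 reached 10. The 4 were CACNA2D4 (29.7), GABRE (22.0), CHRNB1 (19.4) and SCN9A (17.0). Of the 79 genes, 37 (46.8%) passed the level needed for testing, a mean of 0.1 estimated FPKM, against 78.7% of all genes, and 42 did not.

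Among the 37 tested genes, 12 were higher and 4 lower in EZHi (limma, adjusted p under 0.05, hereafter called). This is 43.2% called, 32.4% higher and 10.8% lower, against 13.1% called, 8.85% higher and 4.27% lower over all 20153 genes tested. The rises included HTR3B, SCN4A, GRIN3B, CACNA1D, GRIN1, CACNA1H, CHRNA4, SCN8A, GABRD, GLRB and HTR1D. Of the 37 tested genes, 9 were called higher by at least 2-fold, against 3.21% of all genes tested. The falls included CACNA2D4, CHRNE and CHRNB1, and all 4 were under 2-fold. The median log2 fold change of the 37 genes was 0.27 against -0.0077 for all genes tested, and 27 were positive and 10 negative. A gene that is low in vehicle could pass the level through its EZHi libraries, so these shares are descriptions of the genes that passed. The study describes the replicates as biologically independent, and the labels do not say what libraries of the same number share. In bulk RNA, fewer cells of a type and less RNA per cell cannot be told apart.

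Called genes were then set beside genes of like level, since rises were more frequent among low genes of the whole table. Under 1 estimated FPKM, 9 of 21 receptor and channel genes rose and 1 fell, against 13.8% and 0.392% of all genes of that class. Between 1 and 10, 3 of 12 rose and 1 fell, against 11.3% and 2.25%. At 10 and over, 0 of 4 rose and 2 fell, against 2.73% and 9.16%. In the last class CACNA2D4 and CHRNB1 were the falls, and GABRE (-0.32) and SCN9A (0.13) were not called.

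**Figure D1:**
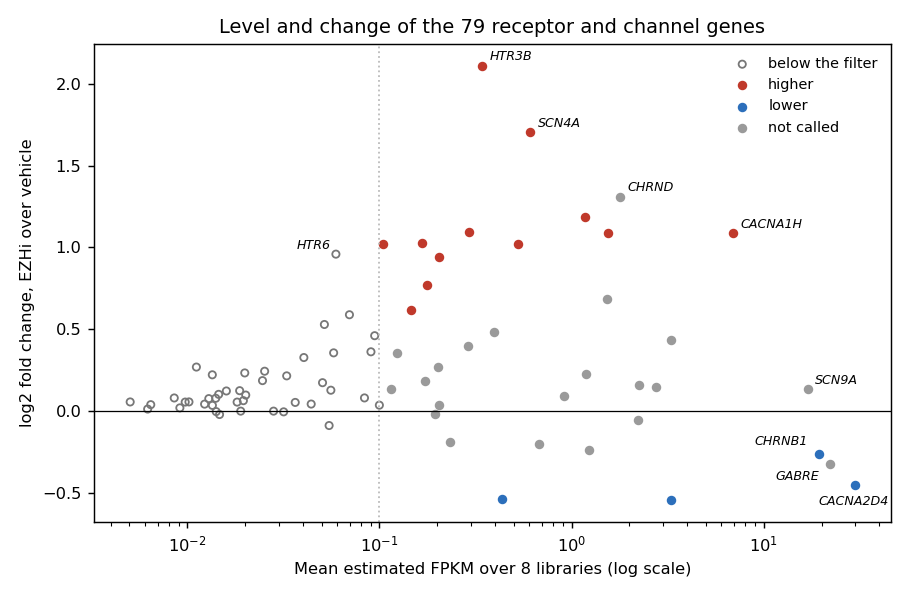
Mean estimated FPKM over the 8 libraries (log scale) against the log2 fold change of EZHi over vehicle, 1 point per gene for all 79 genes; open points lie below the level of 0.1 (dotted line) and come from a fit without that filter. The 12 genes called higher all lie below 10 estimated FPKM, while 2 of the 4 called lower, CACNA2D4 and CHRNB1, are among the most expressed.

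Libraries with the same replicate number deviated together from their group means in both groups, with correlations of 0.22 to 0.63 over the genes tested, so a fit with the replicate number as a block is given beside these counts. With the block 19 of the 37 genes were higher and 5 lower, against 14.9% and 15.1% of all genes tested (30% in both directions). It called 8 further genes and lost none. Scaling changed the counts of both rises and falls. With libraries centred on genes of at least 10 estimated FPKM, 16 were higher and 1 lower, the latter being CACNA2D4, and with quantile normalization 10 were higher and 3 lower. No called gene changed sign under either. Leaving out any 1 of the 8 libraries gave 9 to 12 rises and 1 or 2 falls, where CHRNB1 and CHRNE each kept the call in 1 of these fits and CACNA2D4 in all 8. The groups of libraries did not overlap for 14 of the 37 genes in the upward direction and for 5 in the downward direction, against 10.7% and 7.93% of all genes tested (18.6% together).

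**Figure D2:**
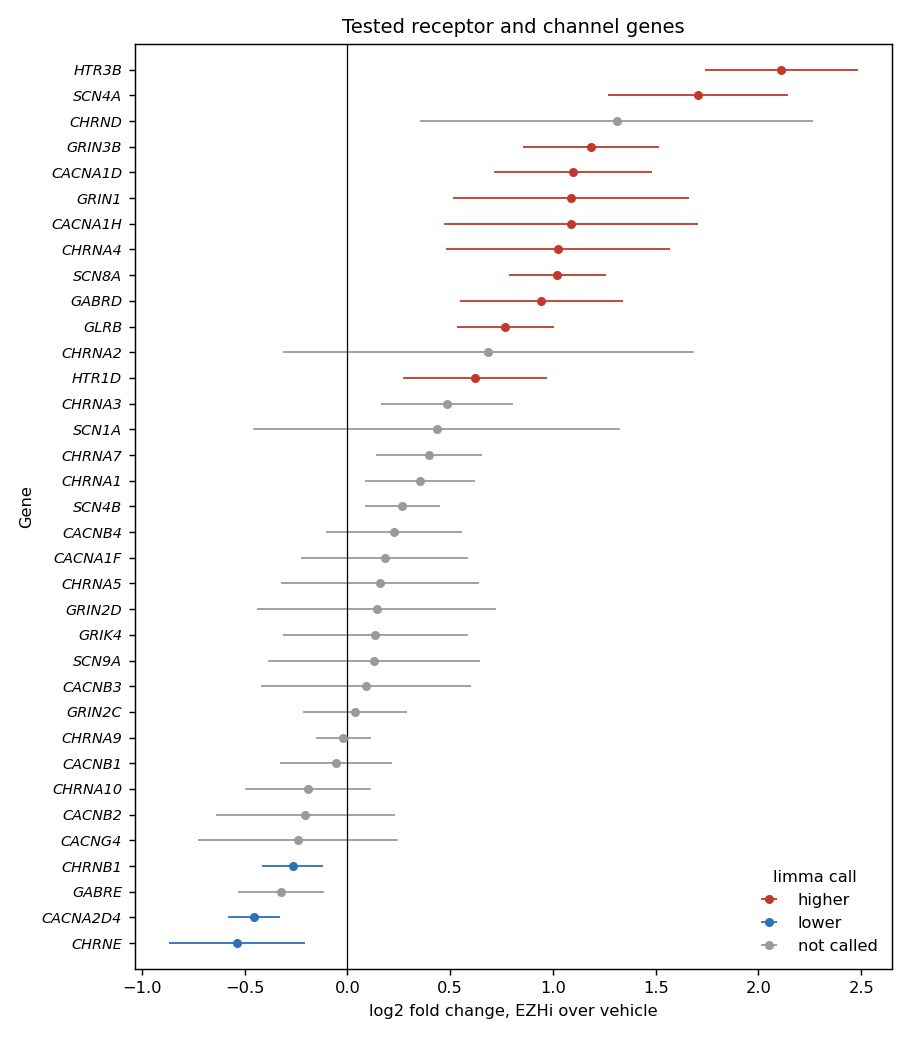
Log2 fold change of EZHi over vehicle (horizontal axis) for 35 of the 37 tested genes, with 95% intervals of the limma fit as bars and colours for the call. CHRND, CHRNA2 and SCN1A have the widest intervals, and that of CHRND lies above 0 although its adjusted p of 0.0761 does not pass.

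Pore-forming subunits of the sodium channels, which carry the sodium current, rose in 3 of 5 tested genes and fell in 0 (0 also at an unadjusted p under 0.05). Over all genes tested, 8.85% rose and 4.27% fell. In what follows, SE is the standard error of the limma fit, and library values are log2 values listed by replicate number from 1 to 4. SCN4A, the skeletal muscle sodium channel (ENSG00000007314, chromosome 17, 63938554 to 63972918, minus strand), had values of 2.76, 2.66, 2.99 and 2.94 in vehicle and 4.17, 4.20, 5.02 and 4.78 in EZHi. Every EZHi library was above every vehicle library. SCN4A rose by 1.70 on the log2 scale (SE 0.20, limma adjusted p 0.000357), and the estimated FPKM went from 0.28 to 0.941.

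SCN8A, the channel of axon initial segments and nodes of Ranvier (ENSG00000196876, chromosome 12, 51590266 to 51812864, plus strand), had values of 3.21, 3.26, 3.09 and 3.01 in vehicle and 4.08, 4.01, 4.27 and 4.30 in EZHi. These groups were tight and well apart, and the log2 fold change was 1.02 (SE 0.11, limma adjusted p 0.000194). SCN8A and SCN4A correspond to about 61.5 and 46.6 normalized reads per library.

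The most expressed sodium channel gene, SCN9A, which encodes a channel of nociceptive neurons, differed by 0.13 with an interval of -0.38 to 0.65 (limma adjusted p 0.78). Its values were 8.47, 8.22, 9.35 and 8.57 in vehicle and 8.83, 8.49, 9.17 and 8.65 in EZHi, so that the groups overlapped. SCN9A lies on chromosome 2 beside SCN1A, SCN2A, SCN3A and SCN7A. SCN1A, the channel of inhibitory interneurons, was at 3.29 estimated FPKM, while SCN2A (0.016), SCN3A (0.00622) and SCN7A (0.0146) were below the level for testing. Expression in this cluster was thus concentrated in 2 adjacent genes, a description made after the values were seen. SCN9A and SCN1A share 11.4% and 8.61% of their exonic bases with the antisense gene SCN1A-AS1, at 0.236 estimated FPKM, and reads there were set aside by the counting.

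Auxiliary beta subunits of the sodium channels bind the pore and speed its gating. SCN4B had values of 2.24, 2.26, 2.15 and 2.23 in vehicle and 2.35, 2.66, 2.52 and 2.43 in EZHi. It was not called (0.27, limma adjusted p 0.0579), and was higher with the block (0.0449) and with centring on genes of at least 10 estimated FPKM (0.0132).

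Calcium channel pore subunits rose in 2 of 3 tested genes and fell in 0 (0 also at an unadjusted p under 0.05), against 8.85% and 4.27% of all genes tested. CACNA1H encodes a low-voltage-activated, T-type channel (ENSG00000196557, chromosome 16, 1153106 to 1221771, plus strand). It was the most expressed of the 12 rises, from 4.55 to 9.33 estimated FPKM, with values of 7.03, 7.37, 6.01 and 6.72 in vehicle and 7.92, 8.29, 7.44 and 7.84 in EZHi. Replicate 3 was the lowest and replicate 2 the highest library in both groups. CACNA1H rose by 1.09 on the log2 scale (SE 0.28, limma adjusted p 0.0283), and pair differences ran from 0.88 to 1.43. The call was lost without vehicle replicate 4 or without EZHi replicates 1, 2 or 4 (adjusted p up to 0.074), and with the block the adjusted p was 7.43e-05. TPSG1, a tryptase gene on the other strand that shares 121 exonic bases with CACNA1H, also rose, by 0.91 (limma adjusted p 0.00374).

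CACNA1D, an L-type channel of endocrine and sinoatrial cells (ENSG00000157388, chromosome 3, 53328963 to 53813733, plus strand), had values of 2.08, 1.86, 2.54 and 2.46 in vehicle and 3.35, 3.10, 3.65 and 3.23 in EZHi. No library of EZHi reached down to the vehicle range. The change of 1.10 (SE 0.17, limma adjusted p 0.00234) was called in all 8 fits that left out a library. CACNA1D shares 7.29% of its exonic bases with CHDH on the opposite strand, a gene at 92.1 estimated FPKM that changed by -0.013 (limma adjusted p 0.943). CACNA1F, the L-type channel of the retina, was not called (0.18, interval -0.22 to 0.59).

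CACNA2D4, an alpha2delta subunit that promotes surface expression of the pore (ENSG00000151062, chromosome 12, 1791963 to 1918666, minus strand), was the most expressed of the 79 genes. Its values were 9.81, 9.75, 9.74 and 9.81 in vehicle and 9.34, 9.33, 9.36 and 9.27 in EZHi, the tightest groups among the called genes except for the EZHi libraries of CHRNB1. The gene fell by 0.45 on the log2 scale (SE 0.056, limma adjusted p 0.000539), from 34.3 to 25.1 estimated FPKM. It was the only fall that was called in all 8 fits that left out a library and under the 3 rescalings, quantile normalization, centring on genes of at least 10 estimated FPKM and median of ratios (adjusted p 0.00229, 0.00179 and 0.000494). Its neighbour on chromosome 12, the pore subunit gene CACNA1C, was at 0.0246 estimated FPKM and was not tested.

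Beta subunits of calcium channels, which bind the pore from the cytoplasm, were all tested. Of these 4 genes 0 were called (0 also at an unadjusted p under 0.05 and 0 with the block), against 13.1% of all genes tested. CACNB1, the most expressed, differed by -0.056 (interval -0.33 to 0.22), CACNB4 by 0.23 (-0.10 to 0.56), CACNB3 by 0.091 (-0.42 to 0.60) and CACNB2 by -0.20 (-0.64 to 0.23). The sign of CACNB1 turned with centring on genes of at least 10 estimated FPKM (0.039), and that of CACNB3 with quantile normalization (-0.12). Of the gamma subunits, CACNG4 alone was tested (-0.24, interval -0.72 to 0.25).

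**Figure D3:**
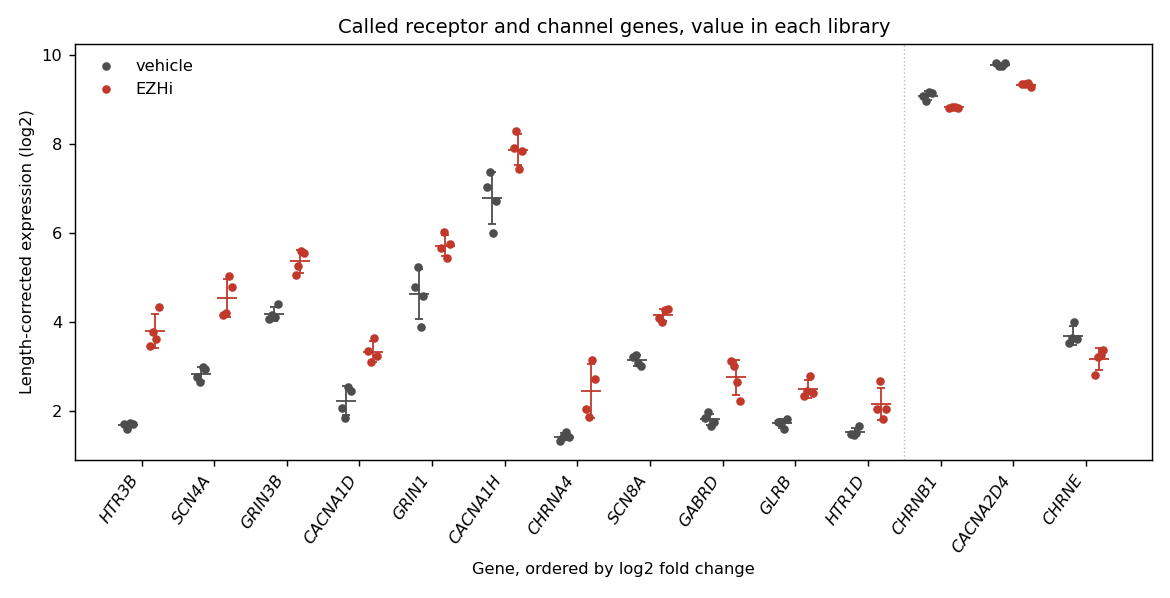
Length-corrected log2 expression (vertical axis) of 14 of the 16 called genes in each of the 4 vehicle and 4 EZHi libraries, with the mean and SD of each group as a line and bars; genes are ordered by log2 fold change and the dotted line parts rises from falls. The groups of libraries are separate for all 14 genes, by the widest margin for HTR3B, against 18.6% of all genes tested. Since the genes were plotted because they were called, this separation adds no support to the calls.

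Among the receptors, the largest rise was that of HTR3B (ENSG00000149305, chromosome 11, 113904796 to 113949079, plus strand), a subunit that joins the serotonin type 3 receptor, the ion channel among the serotonin receptors. Its values were 1.72, 1.60, 1.74 and 1.71 in vehicle and 3.46, 3.78, 3.63 and 4.34 in EZHi. Vehicle libraries were nearly equal and low, and EZHi replicate 4 was the highest. The group means were 1.69 ± 0.064 (SD, n = 4) and 3.80 ± 0.38 (SD, n = 4), so that HTR3B rose by 2.11 on the log2 scale (SE 0.17, limma adjusted p 3.59e-05), or 4.32-fold. The level in EZHi was 0.56 estimated FPKM, and about 19.7 normalized reads per library stand behind the mean of the 8 libraries. Vehicle libraries were at 0.118 to 0.130 estimated FPKM, so fewer reads stand behind them than behind that mean. Because the regularized log shrinks differences of low genes, the small SD in vehicle may understate the spread, and the SE and adjusted p depend on it.

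HTR1D, a serotonin receptor coupled to inhibitory G proteins, was also higher. Its values were 1.496, 1.46, 1.52 and 1.66 in vehicle and 2.06, 2.67, 1.84 and 2.05 in EZHi, with EZHi replicate 2 above the others. The change of 0.62 (SE 0.16, limma adjusted p 0.0274) was not called with quantile normalization (0.082) nor without vehicle replicates 1, 2 or 3 or EZHi replicates 1 or 4 (up to 0.0726). With the block the adjusted p was 0.00955. The other 5 serotonin receptor genes were below the level for testing.

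NMDA receptors, glutamate-gated channels that need an obligatory GRIN1 subunit, had 4 tested genes, of which 2 rose and 0 fell (0 also at an unadjusted p under 0.05). The shares over all genes tested were 8.85% and 4.27%. GRIN1 (ENSG00000176884, chromosome 9, 137138346 to 137168756, plus strand) had values of 4.79, 5.24, 3.88 and 4.59 in vehicle and 5.66, 6.02, 5.44 and 5.74 in EZHi. As in CACNA1H, replicate 3 was lowest and replicate 2 highest in both groups. GRIN1 rose by 1.09 on the log2 scale (SE 0.26, limma adjusted p 0.0203). The call was lost with quantile normalization (0.0533) and without vehicle replicate 4 or EZHi replicates 2 or 4 (up to 0.0593), and the adjusted p with the block was 0.000522.

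GRIN3B, a glycine-binding NMDA receptor subunit (ENSG00000116032, chromosome 19, 1000419 to 1009732, plus strand), was at 4.07, 4.15, 4.10 and 4.42 in vehicle and 5.05, 5.26, 5.61 and 5.55 in EZHi. The change of 1.18 (SE 0.15, limma adjusted p 0.000575) was called in all 8 fits that left out a library. TMEM259, a gene at 67.1 estimated FPKM on the other strand that shares 2.59% of the exonic bases of GRIN3B, changed by -0.12 (limma adjusted p 0.426). The most expressed NMDA receptor gene, GRIN2D, was not called (0.14, interval -0.44 to 0.73). Its values, 6.10, 6.53, 5.32 and 6.11 in vehicle and 6.03, 6.67, 5.78 and 6.15 in EZHi, varied more between replicate numbers than between groups, and its sign turned without vehicle replicate 3 (-0.087) or EZHi replicate 2 (-0.027). GRIN2C differed by 0.036 (interval -0.22 to 0.29), and by -0.12 with quantile normalization. The kainate receptor gene GRIK4, the only kainate receptor gene tested, differed by 0.14 (interval -0.31 to 0.59), with the sign turned under quantile normalization (-0.036).

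Receptors for inhibitory transmitters were represented by 3 tested genes. GABRD, the delta subunit of extrasynaptic GABA-A receptors (ENSG00000187730, chromosome 1, 2019329 to 2030758, plus strand), had values of 1.85, 1.98, 1.67 and 1.76 in vehicle and 3.12, 3.01, 2.66 and 2.23 in EZHi, where replicate 4 came closest to the vehicle range. It rose by 0.94 (SE 0.18, limma adjusted p 0.00658). GLRB, the subunit that ties glycine receptors to gephyrin (ENSG00000109738, chromosome 4, 157076125 to 157172090, plus strand), went from 1.76, 1.74, 1.59 and 1.83 in vehicle to 2.33, 2.46, 2.79 and 2.42 in EZHi, a change of 0.77 (SE 0.10, limma adjusted p 0.00103). Both were called in all 8 fits that left out a library, at a depth of about 7.52 and 6.59 normalized reads per library.

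GABRE, the epsilon subunit of the GABA-A receptor, was expressed far above GABRD. Its values of 9.27, 9.54, 9.10 and 9.23 in vehicle and 8.92, 8.98, 9.03 and 8.92 in EZHi did not overlap. The change of -0.32 (SE 0.094) missed the threshold (limma adjusted p 0.0515), and the adjusted p was 0.0117 with the block and 0.0232 without vehicle replicate 3. Leaving out any other library did not give a call (adjusted p up to 0.133). The adjusted p was 0.118 with quantile normalization, 0.146 with centring on genes of at least 10 estimated FPKM and 0.0469 with median of ratios. The neighbouring GABRQ was at 0.00855 estimated FPKM and was not tested.

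Nicotinic acetylcholine receptors are pentamers, and CHRNA1, CHRNB1, CHRND with CHRNE or CHRNG form the receptor of the neuromuscular junction, whereas most other CHRN genes form neuronal receptors. Of 11 tested genes 1 rose and 2 fell, against 8.85% and 4.27% of all genes tested. With the block 6 were higher and 2 lower, against 14.9% and 15.1%. CHRNA4, a neuronal subunit (ENSG00000101204, chromosome 20, 63343223 to 63378401, minus strand), had values of 1.33, 1.42, 1.53 and 1.43 in vehicle and 2.05, 1.87, 3.16 and 2.72 in EZHi. The EZHi libraries were widely spread, with replicates 3 and 4 highest, and about 5.87 normalized reads per library stand behind the values. Its change of 1.03 (SE 0.24, limma adjusted p 0.0214) lost its call without vehicle replicates 1 or 4 or EZHi replicate 4 (up to 0.0692). With the block the adjusted p was 0.00223.

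CHRNB1 (ENSG00000170175, chromosome 17, 7445061 to 7457710, plus strand), by level the leading nicotinic receptor gene, was at 9.07, 8.95, 9.17 and 9.14 in vehicle and 8.81, 8.83, 8.83 and 8.79 in EZHi. It fell by 0.27 on the log2 scale (SE 0.067, limma adjusted p 0.0273). The call was lost in 7 of the 8 fits that left out a library (all but vehicle replicate 2; up to 0.0841), with quantile normalization (0.0879) and with centring on genes of at least 10 estimated FPKM (0.141), and the block gave 0.00708.

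CHRNE, the adult muscle epsilon subunit, was at 3.53, 3.64, 4.00 and 3.62 in vehicle and 2.80, 3.21, 3.26 and 3.37 in EZHi, a fall by 0.54 (SE 0.15, limma adjusted p 0.0402). This call was lost in 7 of the 8 fits that left out a library (all but EZHi replicate 4; up to 0.0862) and with the same centring (0.0895), and the block gave 0.00776. CHRNE shares 48.6% of its exonic bases with C17orf107 and 8.26% with MINK1, both on the other strand, and MINK1, at 57.0 estimated FPKM, changed by -0.11 (limma adjusted p 0.35).

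CHRND, the delta subunit of the muscle receptor, had the third largest log2 fold change of the tested genes, 1.31 with an interval of 0.35 to 2.27, but was not called (limma adjusted p 0.0761). Its values were 3.89, 3.83, 5.94 and 4.77 in vehicle and 5.70, 5.68, 6.50 and 5.79 in EZHi. Vehicle replicate 3 lay within the EZHi range, and the same replicate number was highest in EZHi. All 4 pairs were higher in EZHi, from 0.57 to 1.85. The adjusted p was 0.00165 with the block and 0.0037 without vehicle replicate 3, where the change was 1.75.

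A like pattern was seen in CHRNA2, a neuronal subunit, and in SCN1A, both named here after their values were seen. CHRNA2 was at 4.76, 3.74, 5.78 and 4.73 in vehicle and 5.28, 4.65, 6.42 and 5.41 in EZHi. SCN1A was at 5.62, 5.26, 6.83 and 6.46 in vehicle and 6.16, 5.69, 7.14 and 6.91 in EZHi. In both genes the replicates spanned a wider range than the difference between groups, replicate 3 was the highest and replicate 2 the lowest of each group, and every pair was higher in EZHi. Their changes of 0.69 and 0.43 had limma adjusted p of 0.377 and 0.547 without the block and 0.00147 and 0.00457 with it.

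**Figure D4:**
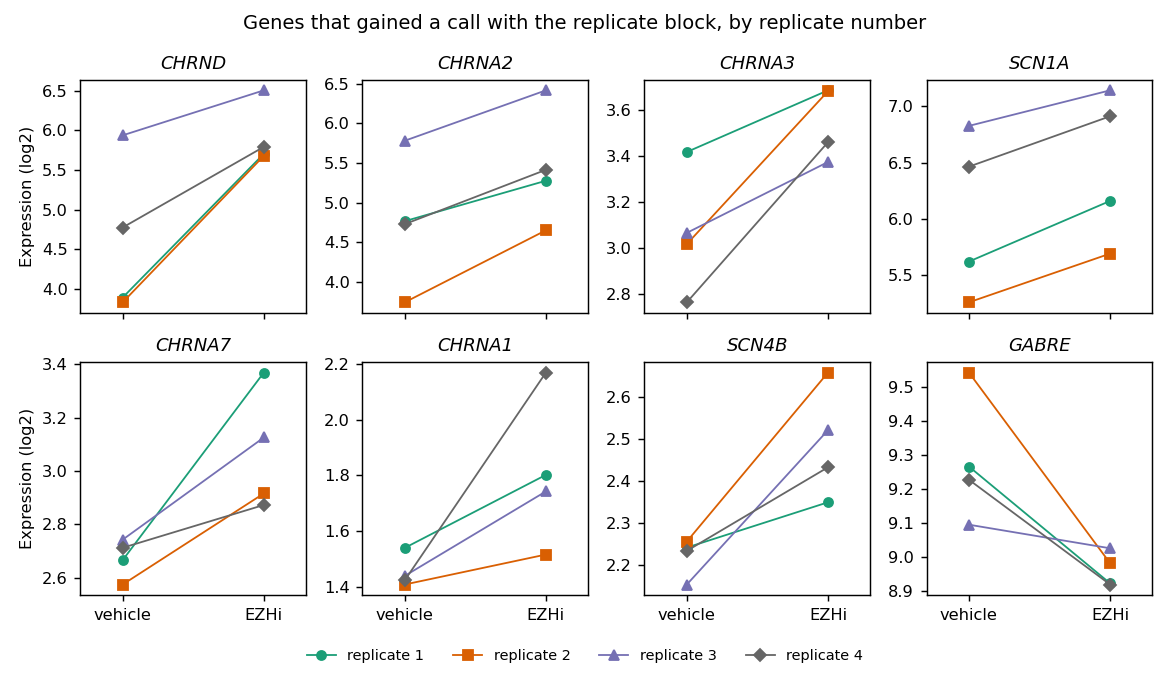
Length-corrected log2 expression (vertical axis, a separate scale per panel) in vehicle and EZHi for the 8 genes that were not called without the replicate block and were called with it, with a line for each replicate number. All 4 lines rise for 7 genes and fall for GABRE, and the lines of CHRND, CHRNA2 and SCN1A start from levels that differ by over 1 log2 unit. Since the fit with the block selected these genes, agreement of the 4 lines largely follows from that choice and adds no support.

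CHRNA3, CHRNA7 and CHRNA1 also gained a call with the block (limma adjusted p 0.0111, 0.022 and 0.0307 with it, against 0.0541, 0.0512 and 0.086), with changes of 0.48, 0.40 and 0.35. They passed too with centring on genes of at least 10 estimated FPKM (0.0201, 0.0196 and 0.041), and not with quantile normalization (0.235, 0.252 and 0.23). CHRNA7 has a partial copy, CHRFAM7A, at 0.0628 estimated FPKM, and reads could be split between them. CHRNA3 lies in a cluster with CHRNA5 and CHRNB4 on chromosome 15. CHRNA5, which overlaps the end of CHRNA3 by 198 exonic bases, was at 2.23 estimated FPKM and differed by 0.16 (interval -0.32 to 0.64, -0.013 with quantile normalization), and CHRNB4 was below the level for testing. CHRNA9 and CHRNA10, known from cochlear hair cells, differed by -0.019 and -0.19 (intervals -0.15 to 0.11 and -0.50 to 0.12), and the sign of CHRNA9 turned with centring (0.076). All 8 libraries of CHRNA9 lay between 2.30 and 2.35 (SD over them 0.021), at about 5.57 normalized reads per library. Because the regularized log shrinks differences of low genes, this narrow interval is not a precise measure of no change.

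Over the genome, 25 of the 79 genes lay in 10 neighbourhoods in which successive genes were less than 1 Mb apart. The called genes among them included GRIN1 near CACNA1B and CACNA2D4 beside CACNA1C, and neither of these partners passed the level for testing. No neighbourhood held 2 called genes.

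The 42 genes below the level for testing had means of 0.00504 to 0.0999 estimated FPKM and at most 10.3 normalized reads per library. They included the 4 metabotropic glutamate receptor genes, 5 of 7 GABA-A receptor genes and 5 of 8 calcium channel pore genes. In a fit without the filter 7 of them were higher and 0 lower, against 8.28% and 3.15% of 25603 genes. HTR6, a serotonin receptor, changed most, by 0.96 (limma adjusted p 0.00312), with values of -0.012, -0.12, 0.17 and 0.073 in vehicle and 0.94, 0.58, 1.29 and 1.14 in EZHi. GRM8 (0.59), SCN3B (0.53), CACNA2D2 (0.46), GRM4 (0.27), CACNA1A (0.24) and CACNA1B (0.22) were the others, and all but GRM8, the most expressed metabotropic glutamate receptor gene, were named after their values were seen. GRM8 had values of 0.59, 0.50, 0.42 and 0.50 in vehicle and 1.43, 1.15, 0.87 and 0.90 in EZHi, with no overlap (limma adjusted p 0.0141). The vehicle libraries of GRM4 were at -1.95, -1.95, -1.95 and -1.95, and those of CACNA1A at -0.76, -0.76, -0.75 and -0.76, values that hardly vary, and the means correspond to 1.06 and 2.17 normalized reads per library. Over the 7 genes this depth ran from 1.06 to 10.3.

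Genes that serve these receptors and channels were examined next, in 8 lists of 125 genes, 91 of which were in the table and 73 tested. Of these 18 were higher and 1 lower (24.7% and 1.37%, against the same background of 8.85% and 4.27%), with a median log2 fold change of 0.11. With the block 32 of 73 were called in either direction, against 30% of all genes tested (14.9% higher and 15.1% lower). The falls among them were 2 partners of glutamate receptors and 3 genes of the REST repressor complex, and the others were rises. Enzymes and transporters of transmitters gave 7 rises among 16 genes and 0 falls (0 also at an unadjusted p under 0.05), and 12 rises with the block. Among them SLC6A12, a betaine and GABA transporter, went from 4.89 ± 0.42 (SD, n = 4) to 6.42 ± 0.14 (SD, n = 4), a change of 1.53 (limma adjusted p 0.000618), and GAD1, which makes GABA, changed by 1.05 (0.00868). The vesicular glutamate transporter genes SLC17A7 (0.67) and SLC17A8 (0.68), the glycine transporter gene SLC6A9 (0.69), SLC6A13 (0.44) and DDC (0.43) were the others.

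The counts of each list stand beside 8.85% higher and 4.27% lower over all genes tested. Here too a gene low in vehicle could pass the level for testing through its EZHi libraries. This held for CACHD1 and for the glutamate receptor partners GRIP2 and GRID1, all called higher, whose vehicle means lay below that level. Counts of the lists, singly and together, therefore describe only the genes that passed. Partners of calcium channels gave 1 rise among 8 genes, that of CACHD1, an alpha2delta-like protein, from 1.35 ± 0.093 (SD, n = 4) to 3.25 ± 0.29 (SD, n = 4), a change of 1.90 (limma adjusted p 1.88e-05). Partners of nicotinic receptors gave 2 among 6, DOK7, an activator of the kinase MuSK (1.35, limma adjusted p 0.000172), and LYPD6, a modulator of these receptors (0.92). Inhibitory synapse genes gave 2 among 7, including NLGN2, an adhesion protein of such synapses (0.57, limma adjusted p 0.0467). Partners of sodium channels gave 2 among 7, including the epithelial sodium channel subunit SCNN1A (0.51), which is not a subunit of voltage-gated channels, and 1 of 2 other metabotropic receptors rose, the GABA-B subunit GABBR2 (0.43). Partners of glutamate receptors gave 3 rises among 17, with CNIH2 the largest (0.77, limma adjusted p 0.00903), and the single fall, the scaffold gene HOMER1 (-0.36, limma adjusted p 0.0235). In the 10 genes of the REST repressor complex, which silences neuronal genes in other tissues, limma called 0 (1 higher and 1 lower at an unadjusted p under 0.05), and REST itself changed by -0.082 (limma adjusted p 0.531). With the block 1 was higher and 3 lower.

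Markers of other cell types were measured beside these genes. Over all genes tested, 8.85% were called higher and 4.27% lower, and 14.9% and 15.1% with the block. Of the neuronal markers, 9 of 14 were in the table and limma called 0 of the 6 tested (1 higher at an unadjusted p under 0.05, 2 with the block), and their summed level was 4.42 to 5.00 estimated FPKM in vehicle and 4.73 to 5.80 in EZHi. The most expressed of them were TUBB3 (2.77) and SYP (1.18), while RBFOX3 (0.0946), SYT1 (0.0171) and MAP2 (0.0581) were near 0. TUBB3 changed by -0.057, and SYP by 0.49 (limma adjusted p 0.114, and 0.00631 with the block). Of the skeletal muscle markers, 7 of 9 were in the table and 2 of 6 tested were higher, TNNT3 (3.13) and CKM (1.18). ACTA1 (-0.54) and MYH3 (-0.17) went the other way and were not called. With the block 3 were higher and 1 lower, the latter being ACTA1 (limma adjusted p 0.0481). Their summed level was 20.3 to 23.9 in vehicle and 27.8 to 35.0 in EZHi, and MYOG was near 0 (0.0253). CHGB was the 1 neuroendocrine marker tested and was higher (1.45), with a summed level for the 5 of 8 in the table of 0.551 to 1.04 in vehicle and 1.91 to 2.34 in EZHi and SCG3 near 0 (0.0122). Endothelial markers rose in 2 of 3 tested genes (4 of 5 in the table), CDH5 (2.28) and VWF (1.45), with a summed level of 2.26 to 2.73 in vehicle and 3.43 to 7.22 in EZHi and TEK near 0 (0.00692). Fibroblast markers rose in 1 of 3 tested genes (4 of 7 in the table), PDGFRA (0.92), with a summed level of 12.4 to 15.2 in vehicle and 15.1 to 17.6 in EZHi and COL3A1 near 0 (0.0518). For immune markers, 3 of 5 of which were in the table, limma called 0 of the 2 tested (0 also at an unadjusted p under 0.05 and with the block), with a summed level of 1218 to 1694 in vehicle and 1093 to 1564 in EZHi, nearly all of it LYZ (1424), and CD3E near 0 (0.0585). The part of these markers in the changes of receptor and channel genes was not tested.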

How the data were processed

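Paired reads were aligned to hg38 by the authors (HISAT2 2.2.1 per the processing notes of the submitters), and those on exons were counted for each gene without strand (HTSeq 0.9.1). The methods that the authors give name other versions of HISAT2 and DESeq2 than the notes. HTSeq ran in union mode, which sets aside reads on exons of more than 1 gene. Genes with hardly any reads were removed. The authors then applied the regularized log of DESeq2 with a correction for mean transcript length, so the deposited values are log2 values, in a table that is called FPKM. Their span, -6.81 to 19.01, and a floor that shifts by -0.92 with each doubling of length bear on this scale. The regularized log shrinks differences of low genes. No counts were used, so read depth is unknown and intervals from counting error are not given. Estimated FPKM and normalized reads were computed with transcript lengths of GENCODE release 44 (GRCh38) and a common library size of 25.6 (in units of 1e6 reads, 24.4 to 27.3 by library).

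The table had 25604 rows, 1 a repeat. limma 3.58.1 in R 4.3.3 (lmFit, eBayes with trend, two-sided) was fitted with the group alone to the 20153 genes whose mean reached 0.1 estimated FPKM, and p-values were adjusted over them by Benjamini-Hochberg. The script was tested on simulated data first. Receptor and channel genes, gene lists and alternatives were chosen with earlier results of these data known. Named were all called members, the most expressed member of each subfamily, the largest change in each subfamily with no call and the largest called change in each related list, and all others were named after their values were seen. Some genes that the rule names are not reported here and are left out of the plots by gene name and of the search for libraries that stand apart. Groups and replicate numbers came from sample titles. In deviations from the group means, same-numbered libraries correlated at 0.22 to 0.63 and others at -0.58 to 0.20, so numbers were taken as pairs. Alternatives changed the filter, pseudocount, scaling, trend, block and libraries used. Promoter windows came from RefSeq (GRCh38.p14). Python 3.11.15, numpy 2.4.6, pandas 2.3.3 and matplotlib 3.10.9 were used.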

Additional observations from a re-analysis of the deposited data

Results flagged for a closer look

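In 58 groups of 4 libraries, a library was taken as standing apart where its gap to the nearest other library exceeded 0.829 of the whole range (the critical value of Dixon at 95%). There were 2 such cases, where chance gives about 2.9. EZHi replicate 2 was low in CACNB4, at 4.65 against 5.12 to 5.21 in the other EZHi libraries, and the change of this gene without it was 0.35 (limma adjusted p 0.109). EZHi replicate 3 was high in CHRND, at 6.50 against 5.68 to 5.79.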

How the results depend on the processing

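The 12 genes called higher and 4 called lower became 19 and 3 without the filter on level, and 3 and 3 where a mean of 1 estimated FPKM was required, since fewer genes were tested. With the replicate block 19 were higher. With libraries centred on genes of at least 10 estimated FPKM 1 was lower. Of the alternatives chosen after seeing the data, the block with quantile normalization gave 8 lower, the block with the same centring gave 20 higher, and leaving out the libraries of replicate 3 in both groups gave 13 higher and 3 lower. Across the 8 fits that left out a library the number higher ranged from 9 to 12 and the number lower from 1 to 2. The median log2 fold change of 0.27 became 0.13 without the filter, 0.15 with the higher filter, 0.13 and 0.20 with pseudocounts of 0.5 and 0.1, 0.18 with quantile normalization and 0.36 with centring, and ranged from 0.25 to 0.35 across fits that left out a library. The number of genes called, 2644, was 1579 at the higher filter and 6051 with the block. Called related genes, 19, were 7 and 32 under the same settings. Over rescalings and left-out libraries signs turned for CACNB1 (0.039) and CHRNA9 (0.076) with centring, for CACNB1 without vehicle replicate 2 (0.021, range over left-out libraries -0.14 to 0.021), for GRIK4 (-0.036), CACNB3 (-0.12), GRIN2C (-0.12) and CHRNA5 (-0.013) with quantile normalization, for GRIN2D without vehicle replicate 3 (-0.087) or EZHi replicate 2 (-0.027, range -0.087 to 0.31), and for SCN9A without vehicle replicate 2 (-0.012, range -0.012 to 0.36), none of them called, and leaving out a library also turned CACNB3 (-0.075 to 0.29), GRIN2C (-0.045 to 0.10) and CHRNA5 (-0.038 to 0.32), which were not called either. The block changed no call of a named gene other than the 8 gained. The causes were not tested. Depth limits the genes under about 10 normalized reads per library, among them CHRNA4, CHRNA9, GABRD and GLRB.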
